A study of Bos taurus with 6 samples.

Results

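The genes described here encode the machinery of apoptosis and the receptors that can start it, namely the BCL2 family, caspases, inhibitor of apoptosis proteins (IAPs), members of the tumour necrosis factor (TNF) receptor family with their adaptors, and the p53 regulator MDM2. A list of 45 such genes was drawn up by function, and a gene was found where its symbol stood in the annotation of the deposited table. In this way 44 of the 45 genes were found, each read by 1 of the 24415 transcript clusters of the array, a cluster being a group of probes for a gene or a stretch of it. For 39 of them the cluster lists 1 symbol, and for BAX, BCL2L13, BID, FASLG and TNFRSF21 it lists a further locus symbol beside the gene, so that probes shared with that locus could add to these values. No cluster is listed for BIRC2, which is not analysed here.

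The cells were primary bovine granulosa cells, the somatic cells that surround the oocyte in the ovarian follicle, grown for 4 days without serum in alpha-MEM with FSH, IGF-1 and androstenedione. They were aspirated from small and medium follicles and had been frozen before culture. On day 2 the cultures were exposed for 2 h either to the vehicle DMSO or to 50 μM PD98059, an inhibitor of MEK that prevents the phosphorylation of the kinases ERK1 and ERK2, after which the medium was renewed. The sample labels give a renewal of 70%, the study's methods a change to medium free of inhibitor, so how much inhibitor stayed is not settled. Affymetrix bovine gene arrays were used for 3 DMSO and 3 PD98059 cultures, and all cultures of both groups shared the hormone supplements. No source tells whether the 3 cultures of a group were started from separate preparations of cells. The p-values therefore cover only how far these particular cultures varied.

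Apoptosis can start inside the cell or at its surface. In the intrinsic pathway, BH3-only proteins release BAX and BAK1 from their BCL2-like guardians, the outer mitochondrial membrane opens, cytochrome c joins APAF1 and CASP9, and the executioner caspases follow unless IAPs hold them back. In the extrinsic pathway, ligands of the TNF family bind death receptors, whose adaptors recruit CASP8, with CFLAR as its competitor. Follicles that do not ovulate are lost through apoptosis of their granulosa cells, and ERK is known from other cells to act on several of these proteins by phosphorylation, a step that RNA levels do not read.

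Most of these genes differed little between PD98059 and DMSO cells, and TNFRSF12A was the 1 gene past both limits of the test. A cluster was called changed at a Benjamini-Hochberg false discovery rate (FDR) under 0.05 over all 24415 clusters in limma, a linear model with moderated variances, and a fold above 1.4, the limits used in the study. Under this rule 1 of the 44 genes was lower in the PD98059 cells, against 1.78% of all clusters, and 0 were higher, against 0.909% of all clusters. At the FDR limit alone 3 genes were lower (2.82% of all clusters), namely TNFRSF12A, BCL2 and TNFRSF1A, and 1 was higher (1.72% of all clusters), XIAP. All 3 lower genes lay above the array background, where 4.35% of clusters were lower at the FDR limit. At an unadjusted p under 0.05, limma gave 2 higher and 6 lower genes of the 44, and 19.6% of all clusters lay under this limit in either direction. Of the 15345 clusters above background 3926 did so. The unmoderated comparison of the 2 groups placed 3 higher and 10 lower genes under the same unadjusted limit, where 18.4% of all clusters lay, and 1 higher and 1 lower gene passed the FDR limit. All fold changes are log2 differences of PD98059 minus DMSO, and levels are log2 values of the Robust Multichip Average (RMA), which are relative to the array and do not compare 1 gene with another.

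Precision was set by the small number of arrays. Among the 44 genes the log2 fold change had a median standard error of 0.084, and the smallest p that an exact permutation of 3 against 3 arrays allows is 0.1. The 95% interval of the change lay wholly inside a fold of 1.4 either way for 35 of the 44 genes, against 70.5% of all clusters, and for 32 of the 39 genes above background, against 74.6% of the clusters above background. The 9 others were BCL2, CASP4, CASP8, XIAP, TNFRSF1A, TNFRSF12A, ENDOG and the near-background PMAIP1 and FASLG. Their intervals reach beyond that fold on at least 1 side.

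The signs of the changes were uneven. Of the 44 genes 30 had a fold change below 0, whereas 47% of all clusters did, and the median was −0.073 against 0.013 over all clusters. Above background 28 of 39 genes were below 0 with a median of −0.08, against 49.9% of the clusters there with a median of 0.0033. Reference genes, 10 of them measured, leaned the same way as the 44, with 70% below 0 and a median of −0.065. In the 4 lists of other pathway genes described below, the share below 0 ran from 32.4% to 67.6%. The 3 PD98059 values lay apart from the 3 DMSO values in 17 of the 44 genes, 13 of them lower and 4 higher, while this was so for 25.5% of all clusters, 13% lower and 12.6% higher. Among the 15345 clusters above the background level, where 39 of the 44 genes lie, the share was 33.9%, with 18.3% lower and 15.6% higher, and 16 of the 39 genes were apart, 13 lower and 3 higher. The background level, log2 3.71, is an approximation from the 95th percentile of 363 clusters for olfactory receptors. Counts and medians describe the list, which was not compared with other genes by a test.

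**Figure D1:**
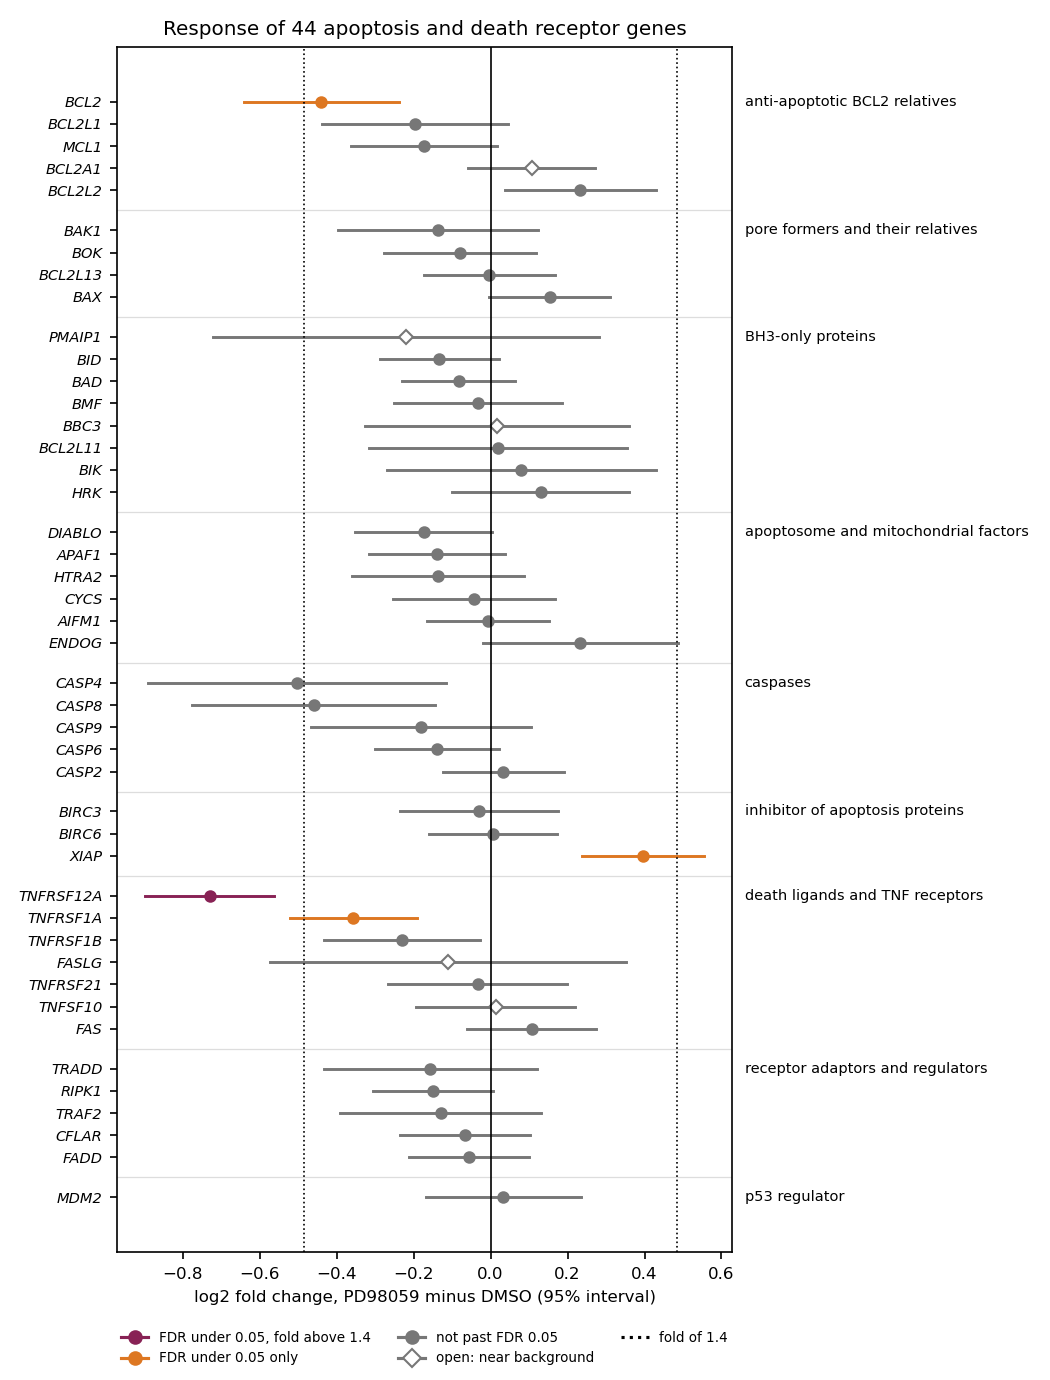
Log2 fold change (PD98059 minus DMSO, horizontal axis) with its 95% interval for the 44 genes, grouped by role, from 3 arrays a group. Dotted lines mark a fold of 1.4, and TNFRSF12A at −0.73 is the gene whose whole interval lies beyond it, while 35 intervals lie between the lines.

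PD98059 treatment down-regulated TNFRSF12A, a small TNF receptor that is induced by growth factors in fibroblasts and binds the ligand TWEAK. This receptor lacks a death domain of its own, and the gene of its ligand, TNFSF12, is not analysed here. Its log2 level was 7.61, 7.65 and 7.58 in the DMSO cultures and 6.79, 6.93 and 6.93 in the PD98059 cultures. The groups were thus 0.65 apart at their nearest values, the widest gap among the 44 genes. The difference of −0.73 (standard error 0.071, adjusted p = 0.00477, limma) is a fold of 1.66, with a 95% interval from −0.90 to −0.56. It passed the threshold in each of the 15 refits, including those without any 1 array, with adjusted p-values from 5.4e-05 to 0.0408.

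TNFRSF1A, the main receptor of TNF and the one with a death domain, was lower as well, but inside the fold limit. The DMSO cultures had levels of 10.17, 10.08 and 10.17, and the PD98059 cultures 9.81, 9.83 and 9.71. No value of one group reached the other, and the difference was −0.36 (standard error 0.069, adjusted p = 0.0393, limma). TNFRSF1B, the second TNF receptor, which has no death domain, stood at 6.38, 6.12 and 6.22 with DMSO and at 5.98, 6.06 and 5.99 with PD98059. Its groups were apart by 0.06 only, and its difference of −0.23 did not pass (adjusted p = 0.204). The FDR call of TNFRSF1A was lost in all 6 fits without 1 array (adjusted p from 0.0797 to 0.138), with the replicate number as a block (adjusted p = 0.122) and in the unmoderated test (adjusted p = 0.054).

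FAS, the death receptor long studied in follicular atresia, did not pass. Its levels were 6.17, 6.25 and 6.19 with DMSO and 6.22, 6.36 and 6.35 with PD98059, and the groups overlapped. The difference was 0.11 with a 95% interval from −0.062 to 0.28. TNFRSF21, a further receptor with a death domain, stood at −0.033 (adjusted p = 0.893). The ligands FASLG and TNFSF10 (TRAIL), which immune cells make, had mean levels of 3.56 and 2.36, below the background level, and their values in these cells are not informative beyond that. Of 13 markers of immune cells 4 lay above that level, and the summed linear level of all 13 ran from 278.9 to 299.5 with DMSO and from 281.2 to 349.9 with PD98059. The part of immune cells in these values was not tested.

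The adaptors and regulators downstream of these receptors all had small negative fold changes, none of which passed in limma, where 0 of the 5 had an unadjusted p under 0.05, or in the unmoderated test, where 1 did. Over all clusters 19.6% lay under that limit in limma and 18.4% in the unmoderated test. RIPK1, a kinase at the branch between survival and death, had levels of 6.87, 6.81 and 6.88 with DMSO and of 6.75, 6.71 and 6.65 with PD98059. These groups did not overlap, and the difference was −0.15 (adjusted p = 0.268). The adaptor TRADD stood at −0.16, TRAF2 at −0.13, CFLAR at −0.067 and FADD at −0.057, with overlapping groups in all 4. Each of the 5 intervals lay inside a fold of 1.4.

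**Figure D2:**
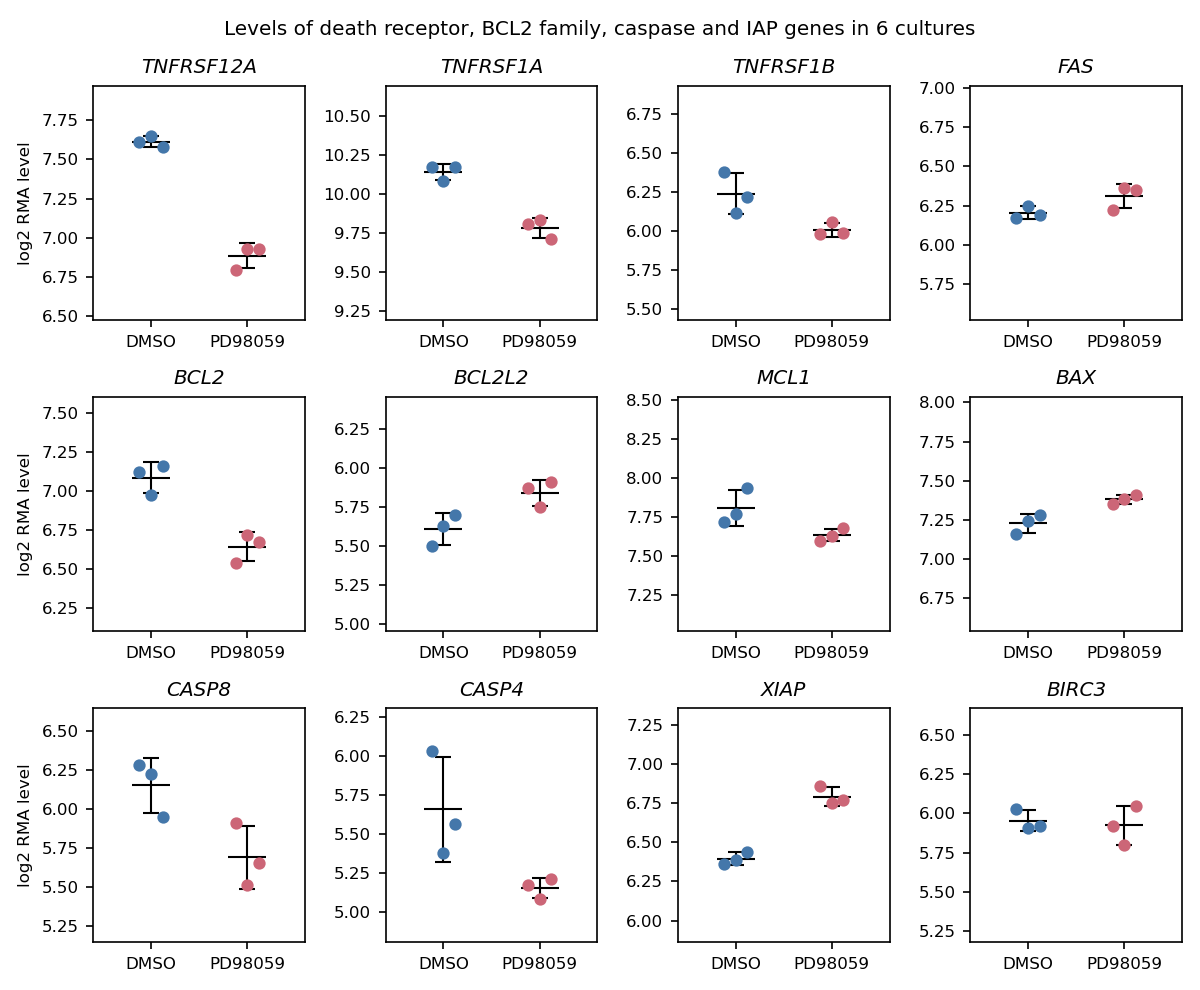
Log2 RMA levels (vertical axis, each panel spanning 1.5 log2 units around its own centre) of 12 of the genes in the 3 DMSO and 3 PD98059 cultures. Points are arrays, and bars are the mean ± SD. TNFRSF12A, TNFRSF1A, BCL2 and XIAP show groups at least 0.25 apart, while FAS and BIRC3 overlap.

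CASP8, the initiator caspase of the death receptors, had a larger but more variable difference than the adaptors. Its levels were 6.28, 6.22 and 5.95 with DMSO and 5.91, 5.51 and 5.65 with PD98059. DMSO replicate 3 and PD98059 replicate 1 lay within 0.04 of each other, and the difference of −0.46 (standard error 0.13) did not pass (adjusted p = 0.119). It went under the FDR limit in 2 of the 15 refits, those with a variance trend and with the clusters above the median level alone. In the ARS-UCD2.0 annotation CASP8 lies close to CFLAR, with 2 genes between them, and CFLAR stood at −0.067 with levels of 7.32, 7.19 and 7.34 with DMSO and of 7.20, 7.19 and 7.26 with PD98059.

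CASP4, an inflammatory caspase that senses bacterial lipopolysaccharide in human cells, had the largest difference among the genes that did not pass the FDR limit. DMSO replicate 1 stood at 6.03, above the 5.38 and 5.56 of the other DMSO cultures, and the PD98059 cultures had 5.17, 5.08 and 5.21. The groups were 0.17 apart, and the difference was −0.50 (standard error 0.16, adjusted p = 0.155). Without DMSO replicate 1 it was −0.32, with an adjusted p of 0.196. CASP9, the initiator caspase of the apoptosome, stood at −0.18, and CASP6, an executioner caspase, at −0.14 with groups that did not overlap, and neither passed. CASP2 showed levels of 7.75, 7.76 and 7.87 with DMSO and of 7.82, 7.82 and 7.84 with PD98059, an overlap with a difference of 0.033.

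Among BCL2 and its anti-apoptotic relatives, BCL2 alone passed the FDR limit and none passed the fold limit with it. BCL2, which holds BAX, BAK1 and BH3-only proteins in check, had levels of 7.12, 6.97 and 7.16 with DMSO and of 6.54, 6.72 and 6.67 with PD98059. The PD98059 values were all lower, by a gap of 0.25, and the difference of −0.44 (standard error 0.085, adjusted p = 0.0374, limma) is a fold of 1.36, inside the fold limit. The FDR call was lost in all 6 fits without 1 array (adjusted p from 0.0605 to 0.134), in the replicate block, in the unmoderated test and in the repeated quantile normalization, so that 6 of 15 refits kept it.

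BCL2L2 (BCL-W) had levels of 5.50, 5.63 and 5.70 with DMSO and of 5.87, 5.75 and 5.91 with PD98059. Its PD98059 values were all higher, opposite to BCL2, and the difference of 0.23 did not pass (adjusted p = 0.189). MCL1, a short-lived guardian of the mitochondrion, stood at 7.72, 7.77 and 7.94 with DMSO and at 7.60, 7.63 and 7.68 with PD98059, a difference of −0.17 (adjusted p = 0.297) with groups apart by 0.04. BCL2L1, which encodes BCL-XL and the shorter BCL-XS through splicing that a whole cluster does not separate, stood at −0.20 with overlapping groups. BCL2A1 was near background, with a mean of 2.54.

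The pore formers BAX and BAK1 did not pass in limma or in the unmoderated test, where of the 4 genes of this group 1, BAX, had an unadjusted p under 0.05. In that test 18.4% of all clusters did. BAX had levels of 7.16, 7.24 and 7.28 with DMSO and of 7.35, 7.38 and 7.41 with PD98059. All PD98059 values were higher, by a gap of 0.07, and the difference of 0.15 had a 95% interval from −0.0042 to 0.31 (adjusted p = 0.265). BAK1 had levels of 7.59, 7.52 and 7.76 with DMSO and of 7.30, 7.62 and 7.54 with PD98059, an overlap with a difference of −0.14. BOK stood at −0.080. BCL2L13, a BCL2 relative of the mitochondrial membrane, had levels of 8.38, 8.25 and 8.30 with DMSO and of 8.31, 8.24 and 8.37 with PD98059, and its difference was −0.0033. All 4 intervals lay inside a fold of 1.4.

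None of the 8 BH3-only genes, the sensors that trigger the intrinsic pathway, passed in either direction in limma or in the unmoderated test, and their unadjusted p was under 0.05 in 0 and 2 of them. The same limit took in 19.6% of all clusters in limma and 18.4% in the unmoderated test. BAD, a sensor of growth factor withdrawal, had levels of 8.15, 8.17 and 8.19 with DMSO and of 8.10, 8.11 and 8.05 with PD98059. These groups did not overlap, with an SD of 0.020 and 0.032, yet the difference was only −0.083 (adjusted p = 0.515). BID, which CASP8 cleaves to link the extrinsic to the intrinsic pathway, had levels of 7.59, 7.62 and 7.58 with DMSO and of 7.51, 7.48 and 7.40 with PD98059, a difference of −0.13 (adjusted p = 0.323) with no overlap.

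BCL2L11 (BIM), whose protein ERK marks for degradation in other cells, had levels of 5.63, 5.31 and 5.78 with DMSO and of 5.41, 5.66 and 5.71 with PD98059. The groups overlapped, and the difference of 0.020 had a 95% interval from −0.32 to 0.36. BMF stood at −0.033, HRK at 0.13 and BIK at 0.080, with overlapping groups. The p53 targets BBC3 (PUMA) and PMAIP1 (NOXA) were near background, with means of 3.69 and 3.07, and their differences of 0.017 and −0.22 are measured there only. Apart from PMAIP1, the intervals of these 8 genes lay inside a fold of 1.4.

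Of the factors that act at or after the opening of the mitochondrion, 5 of 6 had fold changes below 0 and none passed in limma or in the unmoderated test, with an unadjusted p under 0.05 in 0 and 1 of them. Among all clusters the shares under that limit were 19.6% in limma and 18.4% in the unmoderated test. DIABLO (SMAC), which neutralizes IAPs, had levels of 8.11, 8.08 and 8.0 with DMSO and of 7.99, 7.85 and 7.83 with PD98059. The groups were apart by 0.01, and the difference was −0.17 (adjusted p = 0.265). APAF1, the scaffold of the apoptosome, stood at 7.08, 6.92 and 7.06 with DMSO and at 6.91, 6.91 and 6.82 with PD98059, also 0.01 apart, with a difference of −0.14. HTRA2, a mitochondrial protease that also binds IAPs, had levels of 7.98, 7.73 and 7.94 with DMSO and of 7.73, 7.85 and 7.66 with PD98059, an overlap. CYCS, which encodes cytochrome c, stood at −0.043, AIFM1 at −0.0067 and the nuclease ENDOG at 0.23 (adjusted p = 0.29).

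XIAP, the IAP that binds and blocks active caspases directly, was the gene with the largest positive difference of the 44. Its levels were 6.36, 6.39 and 6.44 with DMSO and 6.86, 6.75 and 6.77 with PD98059. Every PD98059 value lay above every DMSO value, with a gap of 0.31. The difference of 0.40 (standard error 0.067, adjusted p = 0.0255, limma) is a fold of 1.32, inside the fold limit. Its FDR call held in 8 of 15 refits, among them the unmoderated test (adjusted p = 0.0352), and was lost in the replicate block and in all 6 fits without 1 array (adjusted p from 0.0719 to 0.106). BIRC3, an IAP and ubiquitin ligase of TNF receptor complexes, had levels of 6.03, 5.91 and 5.92 with DMSO and of 5.92, 5.80 and 6.05 with PD98059, a difference of −0.030. BIRC6, a giant ubiquitin ligase, had levels of 7.98, 7.93 and 7.98 with DMSO and of 7.89, 7.97 and 8.05 with PD98059, and its difference was 0.0067. Both overlapped.

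MDM2, the ubiquitin ligase that limits p53 and is itself a p53 target, had levels of 7.86, 7.59 and 7.73 with DMSO and of 7.77, 7.74 and 7.77 with PD98059. The groups overlapped and the difference was 0.033 (adjusted p = 0.875).

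**Figure D3:**
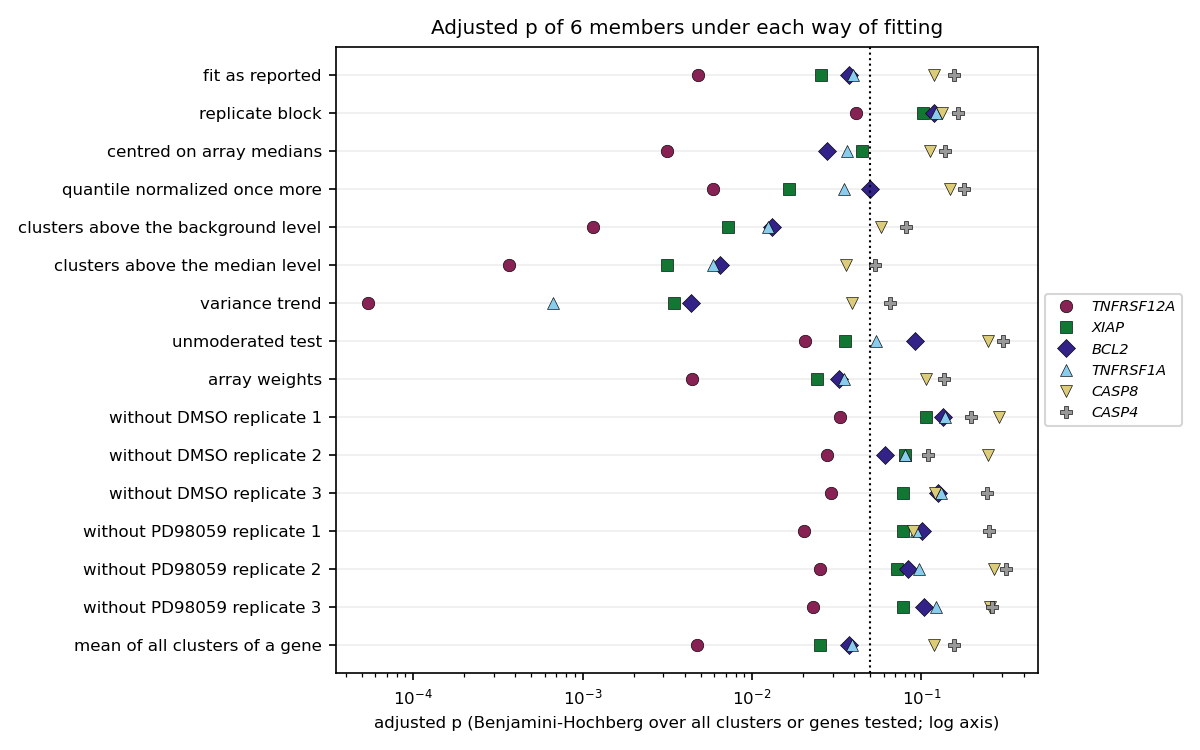
Adjusted p (horizontal log axis, dotted line at 0.05) of 6 genes under the fit as reported and 15 refits. TNFRSF12A stays left of the line in every refit, whereas BCL2, TNFRSF1A and XIAP cross it in all 6 fits without 1 array.

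Other genes of the same pathways were counted in 4 lists, which together hold 160 measured genes beside the 44. Past the threshold lay 11 of these 160 genes, 4 of them higher and 7 lower, where 2.69% of all clusters were called in either direction. Above background lay 133 of the 160 genes, and of the 15345 clusters there 204 were higher and 418 lower. The median fold change of the 160 genes was −0.018. In the list of further TNF ligands and receptors, 30 of 36 genes were measured and 1 passed. It was TNFSF18, the ligand of the costimulatory receptor GITR, at 8.28, 8.30 and 8.26 with DMSO and 7.59, 7.66 and 7.64 with PD98059. This is a fold of 1.57 (log2 fold change −0.65, standard error 0.062, adjusted p = 0.00465), and it passed in all 14 refits tried. The lymphotoxin receptor LTBR stood at −0.42 (adjusted p = 0.0521), TNFSF4 at 0.083 and TNFRSF13C at 0.11.

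Of 37 measured TNF receptor adaptors, NF-κB regulators and necroptosis genes, 1 was higher and 2 were lower, against 0.909% and 1.78% of all clusters. At an unadjusted p under 0.05, limma gave 1 higher and 10 lower genes, where 19.6% of all clusters lay in either direction. Of the 15345 clusters above background 3926 lay there. The unmoderated test gave 2 higher and 11 lower under that limit, where 18.4% of all clusters lay. Fold changes below 0 were seen in 25 of the 37, with a median of −0.07. Groups lay apart in 14 of them, 12 lower and 2 higher, against 25.5% of all clusters. Above background, where 33 of the 37 lie, 33.9% of clusters were apart, 18.3% lower and 15.6% higher. MAP3K5 (ASK1), a stress kinase upstream of JNK and p38, had levels of 6.82, 6.89 and 6.73 with DMSO and of 7.21, 7.46 and 7.54 with PD98059, a difference of 0.59 (adjusted p = 0.0281). REL, a subunit of NF-κB, had levels of 5.21, 5.24 and 5.47 with DMSO and of 4.71, 4.55 and 4.81 with PD98059, a difference of −0.62 (adjusted p = 0.0255). DAPK3, a death-associated kinase, stood at −0.50 (adjusted p = 0.0239). The groups of these 3 genes did not overlap, and each call was lost in the replicate block and in the unmoderated test, that of DAPK3 also in the repeated quantile normalization. Of the 6 fits without 1 array, REL passed in 0, MAP3K5 in 1 (without PD98059 replicate 1) and DAPK3 in 1 (without PD98059 replicate 2), with adjusted p-values up to 0.105. TAB2 at 0.063, FAF1 at 0.087 and MAP3K7 at −0.19 did not pass. TNFAIP8, singled out after its values were seen, had the largest difference of this list at −0.89 (adjusted p = 0.0726), but its mean lay below the background level.

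In the list of other caspases, IAPs, BCL2 relatives and execution genes, 57 were measured and 2 passed, both higher, against 0.909% of all clusters. In limma 6 higher and 7 lower genes had an unadjusted p under 0.05, as did 19.6% of all clusters and 3926 of the 15345 above background. The unmoderated test passed 0 of the 57, with 8 higher and 10 lower genes under that unadjusted limit, where 18.4% of all clusters lay. BNIP3, a mitochondrial BCL2 relative induced by low oxygen, had levels of 9.81, 9.93 and 10.04 with DMSO and of 10.34, 10.52 and 10.47 with PD98059, a difference of 0.52 (adjusted p = 0.0263). SEPTIN4, a short form of which antagonizes XIAP in human cells, stood at 0.67 (adjusted p = 0.0422). Neither call held in any of the 6 fits without 1 array, in the replicate block or in the unmoderated test, and that of BNIP3 was lost with centred arrays too, with adjusted p-values up to 0.096 for BNIP3 and 0.136 for SEPTIN4. BIRC5 (survivin), an IAP of dividing cells that is named beyond the rule for the lists, passed the FDR limit at 0.42 (adjusted p = 0.0284) but not the fold limit. TMBIM6 at −0.020, DAD1 at −0.13 and BNIP3L at 0.15 did not pass.

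Of 37 measured genes of p53 and its targets, FAS among them, 1 was higher and 4 lower, against 0.909% and 1.78% of all clusters. Limma placed 6 higher and 5 lower genes under an unadjusted p of 0.05, where 19.6% of all clusters and 3926 of the 15345 above background lay. The unmoderated test placed 7 higher and 5 lower genes there, against 18.4% of all clusters, and passed 3. SESN2, a stress-induced inhibitor of mTORC1, had levels of 7.21, 7.18 and 7.27 with DMSO and of 6.52, 6.30 and 6.24 with PD98059, a difference of −0.87 (standard error 0.090, adjusted p = 0.00551) that passed in all 14 refits tried. PERP, a membrane protein of desmosomes and cell death, had levels of 6.47, 6.44 and 6.67 with DMSO and of 5.44, 5.80 and 5.87 with PD98059, a difference of −0.82 (adjusted p = 0.0204). The kinase PLK3 stood at −0.68 (adjusted p = 0.0409) and GADD45A, a growth arrest gene, at −0.59 (adjusted p = 0.0134). FDXR, a reductase that feeds electrons to mitochondrial steroid synthesis, was higher at 0.50 (adjusted p = 0.0112). The calls of PERP, PLK3, GADD45A and FDXR were lost in the replicate block and without DMSO replicate 1 or 2, those of PERP and PLK3 also in the unmoderated test and that of FDXR with arrays centred on their medians. Without PD98059 replicate 1 the calls of PERP, PLK3 and GADD45A held, without PD98059 replicate 3 those of PERP and FDXR, without PD98059 replicate 2 or DMSO replicate 3 that of FDXR, and adjusted p-values reached 0.0946 for PERP, 0.133 for PLK3 and 0.0688 for GADD45A and FDXR. The cell cycle inhibitor CDKN1A at −0.17, TP53BP2 at 0.047 and CCNG1 at 0.13 did not pass. The median of this list was 0.057, on the other side of 0 from most of its called genes.

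**Figure D4:**
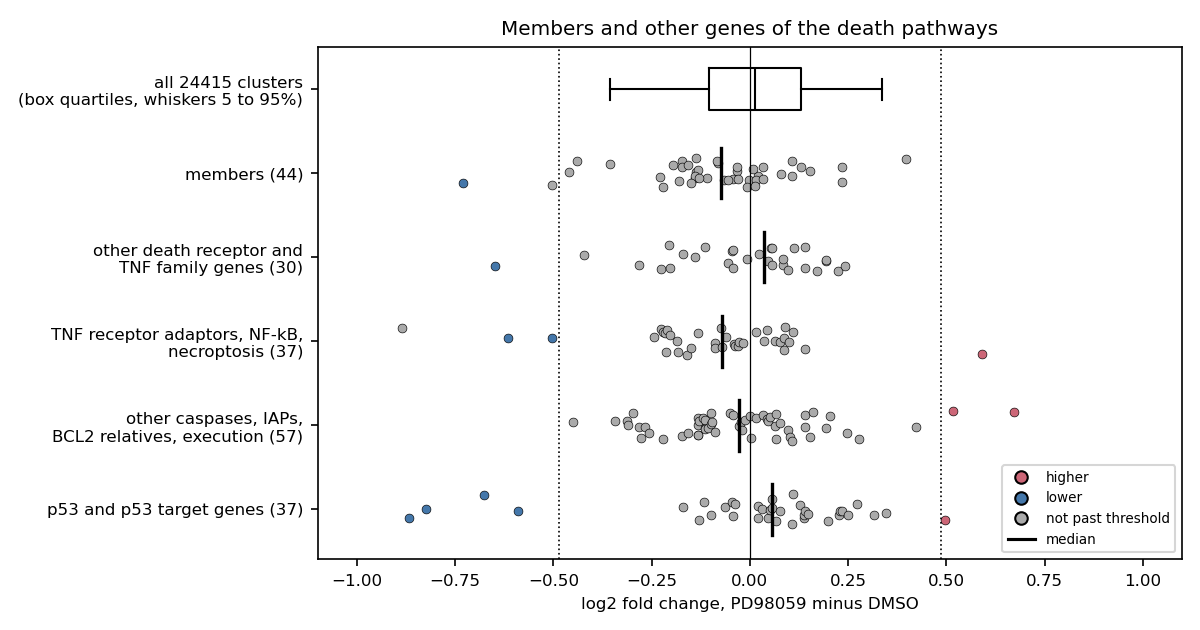
Log2 fold change (horizontal axis) of the 44 genes and of the measured genes of 4 pathway lists, with all 24415 clusters as a box. Each point is a gene, coloured where it passed the threshold, and vertical bars are medians, which lie between −0.073 and 0.057.

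The 6 arrays had medians between 4.68 and 4.74, and the intervals of all 10 measured reference genes lay inside a fold of 1.4. All 12 granulosa markers lay above background and 8 were higher with PD98059, their summed linear level running from 9833 to 10310 with DMSO and from 16400 to 16460 with PD98059. Of 6 endothelial markers 1 lay above background, of 6 oocyte markers 0 did, and all 8 markers of fibroblasts and smooth muscle did, with sums of 8269 to 8408 with DMSO and 7617 to 8085 with PD98059. Of the latter 8, PDGFRB at −0.81 (adjusted p = 0.00294) and PDGFRA at −0.59 (adjusted p = 0.00719) were lower. The brightest, LUM at −0.17, POSTN at −0.027, COL3A1 at 0.20 and DCN at −0.057, did not pass. ACTA2 at −0.12 and the dimmest, MYH11 at 0.62 (adjusted p = 0.0694), did not pass either. VWF, the endothelial marker above background, was lower at −0.57 (adjusted p = 0.0284). Of 5 theca markers 4 lay above background, and the sum of all 5 ran from 405.8 to 426.3 with DMSO and from 588.2 to 611.4 with PD98059. INSL3, the brightest of them, was higher at 0.61 (adjusted p = 0.00623, limma), with mean levels of 8.25 with DMSO and 8.86 with PD98059. PTCH1 at 0.39 passed the FDR limit alone (adjusted p = 0.0258, limma). LHCGR at 0.17, ANPEP at 0.083 and CYP17A1 at −0.073, the last below background, did not pass. The part of these cells in the results was not tested, and fewer cells of a type and less RNA per cell cannot be told apart in such cultures.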

How the data were processed

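RNA of 3 DMSO and 3 PD98059 cultures was measured on Affymetrix bovine gene arrays. The authors ran RMA (background correction, normalization across arrays, probe summary; named in the submitters' processing notes) in Expression Console and deposited its log2 values to 2 decimals. Both deposited tables hold the same log2 values (146490 of 146490), and 0 sample columns were left unmatched. The clusters' genome build is not given in sources used here, so coordinates were left out. RMA sets the arrays to a common distribution, which hides any shift that most transcripts share.

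The log2 values were fitted without a filter in limma 3.58.1 (lmFit, eBayes; R 4.3.3), treatment as the only factor, all tests two-sided. Members were matched by the table's symbols and the pathway and marker genes by RefSeq accession (ARS-UCD2.0) or else by a single symbol, with the brightest cluster kept per gene. The members and lists were chosen with earlier results of these data known. Named were all members, with values in every array for those past the FDR, those with separate groups and a log2 fold change over 0.3 and the 10 brightest, and from each list up to 8 genes past the threshold and 3 others by level. Beyond this rule TNFAIP8, BIRC5 and all measured markers of theca and of fibroblasts and smooth muscle were named. A few genes of the lists are not reported here by name. Fits were tested on simulated data. The methods name an analysis of variance in other software, and that software was not run here. The alternatives were an unmoderated test, array centring, repeated quantile normalization, filters on dim clusters, a variance trend, array weights, a replicate block, other thresholds, averaged clusters and leaving out each array. Intervals are 95% intervals of the moderated fit. Tables were made with Python 3.11.15 and pandas 2.3.3.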

Additional observations from a re-analysis of the deposited data

How the results depend on the processing

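TNFRSF12A was the 1 lower member, and 0 members were higher, in every refit at the same thresholds and without any single array; the counts were 3 lower and 1 higher with no fold limit and 0 lower at a fold above 2. The count of all clusters past the threshold, 656, was 350 in the unmoderated test, 1110 with no fold limit, 87 at a fold above 2, 272 at an FDR under 0.01, and 271 to 491 without 1 array. Of the other pathway genes 11 passed, against 4 in the unmoderated test, 0 at a fold above 2, 2 at an FDR under 0.01 and 2 to 6 without 1 array. Whether the replicate numbers of the labels mark pairs is not settled. Deviations of arrays with the same number correlated by 0.037 to 0.051, and those with different numbers by −0.036 to −0.003. Each array thus correlated best with its own number, but weakly. Deviations were taken from the group means, so a positive value for 1 pair of arrays pulls the others below 0. With the number as a block, 237 clusters and 2 pathway genes passed, and 1 member was lower. The cause of these shifts was not tested. No called gene turned its direction, and 15 members with small differences changed sign or, for CASP2, reached 0 in 1 or more of up to 15 refits. Counting only members whose cluster lists 1 symbol, an alternative added after seeing the data, left both counts the same. Centring on array medians moved the median change of all clusters from 0.013 to −0.020.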

Other observations

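The spread between replicate cultures differed among the genes. The pooled SD within groups ran from 0.027 for BAD to 0.32 for PMAIP1, with a median of 0.096. The 5 genes near background had a median of 0.21 and the 39 others 0.094. Single arrays stood apart in a few of them. PMAIP1 had levels of 3.10, 3.29 and 2.49 with PD98059, FASLG had 3.07, 3.81 and 3.63, and CASP4 had 6.03, 5.38 and 5.56 with DMSO. After BAD the narrowest were BID at a pooled SD of 0.043, RIPK1 at 0.045 and FADD at 0.046, with XIAP at 0.050, TNFRSF1A at 0.059 and TNFRSF12A at 0.062.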
